A study of Arabidopsis thaliana with 12 samples.

Results

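AT4G38080, AT2G22510 and AT1G04660 are 3 Arabidopsis thaliana genes that were picked together as proline- and glycine-rich wall proteins with more transcript in red light than in darkness. The members are the probe sets annotated to these genes, 253024_at for AT4G38080, 263998_at for AT2G22510 and 264606_at for AT1G04660, 3 of the 13286 genes to which a probe set of the array was matched here. The gene table used here gives locus tags for them and no name or function, and no protein sequence was used here, so the class name was taken as given and was not checked.

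Seedlings were 4 days old and only their aerial parts were sampled. They were either kept in darkness, which makes seedlings etiolated (long and pale), or grown under long days of red light, at an intensity of 0.5 µmol m-2 s-1. The genotypes were wild-type Landsberg erecta (Ler) and, in that cultivar, the line atbzip16, named for the basic leucine zipper transcription factor bZIP16. The labels do not describe the atbzip16 allele, and the signal of bZIP16 itself was not analysed here. Each of the 4 groups (dark Ler, dark atbzip16, red-light Ler, red-light atbzip16) had 3 biological replicates with 1 array each. That number limits the precision, and where replicates did not come from separate cultures the p values measure technical spread alone.

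Plant cell walls contain structural proteins beside cellulose, hemicellulose and pectin. One large class is rich in proline, much of which is hydroxylated and then glycosylated on the way to the wall, and it includes the extensins, which can be cross-linked in the wall. Another class is rich in glycine and is known best from vascular walls. Walls loosen while a hypocotyl elongates in the dark, and light slows that elongation while cotyledons open and expand.

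Across the arrays, median signal lay between 148.3 and 186.1. Of 15 listed green-tissue genes 2 were measured, the light-harvesting gene LHCB4.2 and RCA, the activase of the carbon-fixing enzyme Rubisco. Their summed signal was 6676 to 11410 in the dark arrays and 17130 to 34007 in the red-light arrays. LHCB4.2 was called higher in red light in both genotypes by limma. RCA was called in neither (log2 difference 0.53, limma adjusted p = 0.323 in Ler and 0.67, limma adjusted p = 0.185 in atbzip16). A fit with replicate number as a block takes out what arrays of the same number share. By that fit RCA was called higher in both genotypes (limma adjusted p = 0.00073 in Ler and 9.11e-05 in atbzip16). It called 11.0% of all probe sets higher in Ler. Of 11 listed root and root hair genes 2 were measured, EXPA7 and EXPA18, and their summed signal was 50.5 to 246.2 over all arrays. All 7 measured of 12 listed seed storage and maturation genes were lower in red light in both genotypes by limma. It called 5.78% of all probe sets lower in Ler and 6.88% in atbzip16. The summed signal of the 7 was 25866 to 51914 in dark Ler, 67087 to 94406 in dark atbzip16 and 751.3 to 1437 in red light. The part of leftover seed RNA in the values below was not tested, and in whole tissue fewer cells that express a gene cannot be told apart from less transcript per cell. Of 6 listed shoot epidermis genes, 0 were analysed here. Replicate 1 stood apart from replicates 2 and 3 in each group. Over all probe sets tested, deviations from the group mean correlated between replicate 1 arrays of different groups at 0.317 to 0.505, and the green-tissue sum was lowest in replicate 1 of each group. The seed sum was highest in replicate 1 in dark Ler (51914, against 30354 and 25866), in dark atbzip16 (94406, against 69372 and 67087) and in red-light Ler (1300, against 1236 and 1025), but not in red-light atbzip16. The part of these differences in the results for replicate 1 was not tested.

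AT4G38080 had the highest signal in red-light Ler. In dark Ler its signal was 214.7, 122.7 and 123.0 in replicates 1, 2 and 3, and in dark atbzip16 it was 216.1, 112.5 and 122.6. In red-light Ler it was 1197.2, 2989.5 and 2877.3, and in red-light atbzip16 it was 1281.2, 1016.2 and 813.5. All red-light arrays lay above all dark arrays, the lowest red-light value being 3.76 times the highest dark value. In both dark groups replicate 1 was the highest array, and in red-light Ler it was the lowest.

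AT2G22510 followed the same order of groups in red light and had lower dark signals. Its signal was 76.9, 73.4 and 56.3 in dark Ler and 71.0, 29.2 and 34.2 in dark atbzip16. It was 315.1, 1539.4 and 1739.7 in red-light Ler and 243.8, 411.5 and 382.6 in red-light atbzip16. Again no red-light array overlapped a dark array, with a ratio of 3.17 between the lowest red-light and the highest dark value. Replicate 1 of red-light Ler was about as low as the atbzip16 arrays, and the other two Ler arrays were well above them.

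AT1G04660 was the gene whose red-light level was most alike in both genotypes. Its dark values were 96.1, 25.4 and 16.8 in Ler and 29.5, 83.3 and 113.2 in atbzip16, so that replicate 1 was the highest array in one genotype and the lowest in the other. In red light it had 373.7, 633.9 and 650.6 in Ler and 420.3, 431.7 and 600.2 in atbzip16. The lowest red-light value was 3.30 times the highest dark value.

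**Figure D1:**
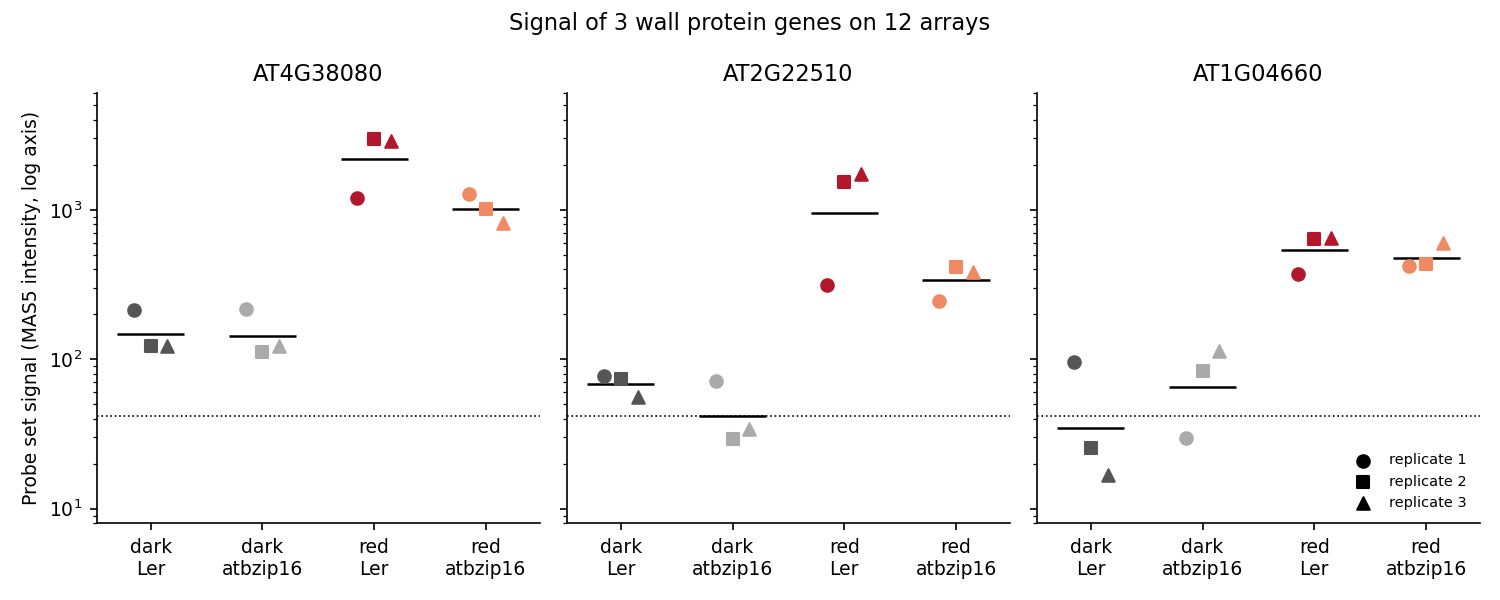
Signal of each gene on the 12 arrays (MAS5 intensity, log axis) by group, with a symbol for each replicate number, the geometric mean of 3 arrays as a bar and the low-signal limit of 41.6 as a dotted line. Red-light arrays lie above dark arrays for all 3 genes, and in red-light Ler replicate 1 (circle) is the lowest array of each gene.

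The genes were chosen for being higher in red light, so the size of that difference is given as a description and was not tested. In Ler, the geometric mean of AT4G38080 went from 148.0 to 2176, a log2 difference of 3.88 with a standard error of 0.37. In atbzip16 it went from 143.9 to 1019, a log2 difference of 2.82 with the same error. For AT2G22510 the means were 68.2 and 945.0 in Ler (log2 difference 3.79 ± 0.55, SE, n = 3 arrays per group) and 41.4 and 337.3 in atbzip16 (3.03 ± 0.55). For AT1G04660 they were 34.5 and 536.2 in Ler (3.96 ± 0.59) and 65.3 and 477.5 in atbzip16 (2.87 ± 0.59). Ranked from the largest rise down among the 15922 probe sets tested, the Ler differences of AT1G04660, AT4G38080 and AT2G22510 held places 9, 10 and 15, and those in atbzip16 places 29, 31 and 21. In 3 of 3 genes the red-light arrays did not overlap the dark arrays of the same genotype, a pattern that 12.6% of all probe sets tested had in Ler and 16.3% in atbzip16, and that the choice of the genes fixes.

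Dark signals of AT2G22510 and AT1G04660 were near the lower end of what was measured, and the files used here carry no detection calls. Probe sets were tested where their geometric mean over the 12 arrays was at or above 41.6, the limit that removed the lowest 30%. All 3 genes passed. AT1G04660 lay below that limit on 3 of 6 dark arrays and AT2G22510 on 2 of 6, while AT4G38080 lay above it on all of them. The mean of AT1G04660 in dark Ler (34.5) and that of AT2G22510 in dark atbzip16 (41.4) were themselves below it. The light differences of both genes are therefore less certain in size than that of AT4G38080. Their spread within groups was also wider, with an SD of log2 signal of 0.87 for AT1G04660 and 0.80 for AT2G22510 against 0.53 for AT4G38080. For AT2G22510 the spread was widest in red-light Ler (SD 1.375), against 0.24 in dark Ler and 0.68 in dark atbzip16. For AT1G04660 it was widest in the dark, at 1.31 in Ler and 1.02 in atbzip16.

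Set out by replicate number, the light difference in Ler was smallest in replicate 1 for each gene. For AT4G38080 it was 2.48 in replicate 1, 4.61 in replicate 2 and 4.55 in replicate 3 on the log2 scale. For AT2G22510 it was 2.03, 4.39 and 4.95, and for AT1G04660 it was 1.96, 4.64 and 5.28. In atbzip16 the replicates differed less, with 2.57 to 3.18 for AT4G38080, 1.78 to 3.82 for AT2G22510 and 2.37 to 3.83 for AT1G04660. Of all probe sets tested, 7.23% were at least 1 log2 unit lower in replicate 1 of red-light Ler than in the mean of replicates 2 and 3. By that measure the log2 difference of replicate 1 was -1.29 for AT4G38080, -2.38 for AT2G22510 and -0.78 for AT1G04660.

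The comparison of genotypes asks whether the transcripts differed between atbzip16 and Ler. It is not the difference the genes were chosen on, but it uses the same arrays. In each light condition it subtracts a Ler signal that also enters the light difference in Ler. It may thus not be independent of the choice of genes, and the p values and intervals do not allow for that. In red light AT4G38080 was lower in atbzip16 by 1.09 on the log2 scale as a point estimate (log2 difference -1.09, SE 0.37, 95% interval -1.89 to -0.30), which is a ratio of 2.13. This did not pass over all probe sets (limma adjusted p = 0.752, unadjusted p = 0.0107). AT2G22510 had a log2 difference of -1.49 (SE 0.55, interval -2.67 to -0.30), a ratio of 2.80, which did not pass either (limma adjusted p = 0.807, unadjusted p = 0.0177). AT1G04660 had -0.17 (SE 0.59, interval -1.45 to 1.11, limma adjusted p = 0.999). In this comparison 0 of 3 genes were called, where limma called 0.0377% of all probe sets and 817 had an unadjusted p under 0.05. With replicate number as a block, which takes out what arrays of the same number share, it called 0.546% of all probe sets and again 0 of the 3 genes (limma adjusted p = 0.249 for AT4G38080 and 0.301 for AT2G22510). For each of the 3 genes the red-light arrays of Ler and atbzip16 overlapped, as they did for all but 4.62% (atbzip16 lower) and 5.34% (atbzip16 higher) of all probe sets.

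The red-light difference of AT4G38080 and AT2G22510 was larger in replicates 2 and 3 than in replicate 1. By replicate number, atbzip16 minus Ler was 0.10, -1.56 and -1.82 for AT4G38080, and -0.37, -1.90 and -2.18 for AT2G22510. In replicates 2 and 3 the Ler signal was thus 2.94 and 3.54 times the atbzip16 signal for AT4G38080, and 3.74 and 4.55 times for AT2G22510, while in replicate 1 it was 0.934 and 1.29 times. Without red-light Ler replicate 1, AT2G22510 was lower in atbzip16 by limma (log2 difference -2.28, adjusted p = 0.0349, with 0.157% of all probe sets called), and AT4G38080 did not pass (-1.52, limma adjusted p = 0.105). With the 8 arrays of replicates 2 and 3 alone, a choice made after the values were seen, both passed (-1.69, limma adjusted p = 2.71e-05, for AT4G38080 and -2.04, limma adjusted p = 0.000198, for AT2G22510), and 2.91% of all probe sets were called. Replicate 1 is the one in which the difference was smallest or absent, and no label sets it apart, so leaving it out favours a call, and these values only describe how the result rests on it.

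In the dark, 0 of 3 genes were called between genotypes, where limma called 0.0628% of all probe sets and 1.82% with replicate as a block. AT4G38080 had nearly the same signal in both genotypes, with a log2 difference of -0.04 (SE 0.37, interval -0.83 to 0.75, limma adjusted p = 0.999) and replicate values of 0.01, -0.13 and 0.00. AT2G22510 had -0.72 (SE 0.55, interval -1.90 to 0.46, limma adjusted p = 0.950). AT1G04660 had 0.92 (SE 0.59, interval -0.36 to 2.20, limma adjusted p = 0.916), and its replicates went in opposite directions, with -1.70 in replicate 1, 1.71 in replicate 2 and 2.75 in replicate 3. Leaving out 1 array gave 0.40 to 1.66 for AT1G04660 and -1.11 to -0.47 for AT2G22510, and neither passed. The dark arrays of the genotypes overlapped for each of the 3 genes, as for all but 5.86% (atbzip16 higher) and 6.39% (atbzip16 lower) of all probe sets. These differences of AT2G22510 and AT1G04660 lie among dark signals at or near the low-signal limit.

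Whether the light response differed between genotypes was tested as the interaction. The estimate was lower in atbzip16 for all 3 genes, -1.05 (SE 0.52, interval -2.17 to 0.07) for AT4G38080, -0.76 (SE 0.77, interval -2.44 to 0.91) for AT2G22510 and -1.09 (SE 0.84, interval -2.90 to 0.72) for AT1G04660. The interaction subtracts the light difference in Ler, and the genes were chosen for being higher in red light. It is thus not independent of that choice, and the shared sign is only a description. None of the 3 passed, each with a limma adjusted p of 1.000, and limma called 0% of all probe sets, with 567 at an unadjusted p under 0.05. The intervals include both no difference and a light response in atbzip16 several times smaller, so the data do not show that the genotypes responded alike. With replicate as a block 0.339% of all probe sets were called and 0 of the 3 genes, the smallest adjusted p being 0.568 for AT4G38080. By replicate number the interaction was 0.09, -1.43 and -1.82 for AT4G38080, -0.25, -0.57 and -1.47 for AT2G22510 and 1.87, -2.27 and -2.87 for AT1G04660, the last resting on dark Ler signals of 25.4 and 16.8 in replicates 2 and 3, below the low-signal limit. Leaving out 1 array gave -1.48 to -0.76 for AT4G38080, -1.56 to -0.32 for AT2G22510 and -1.83 to -0.57 for AT1G04660, and none passed.

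**Figure D2:**
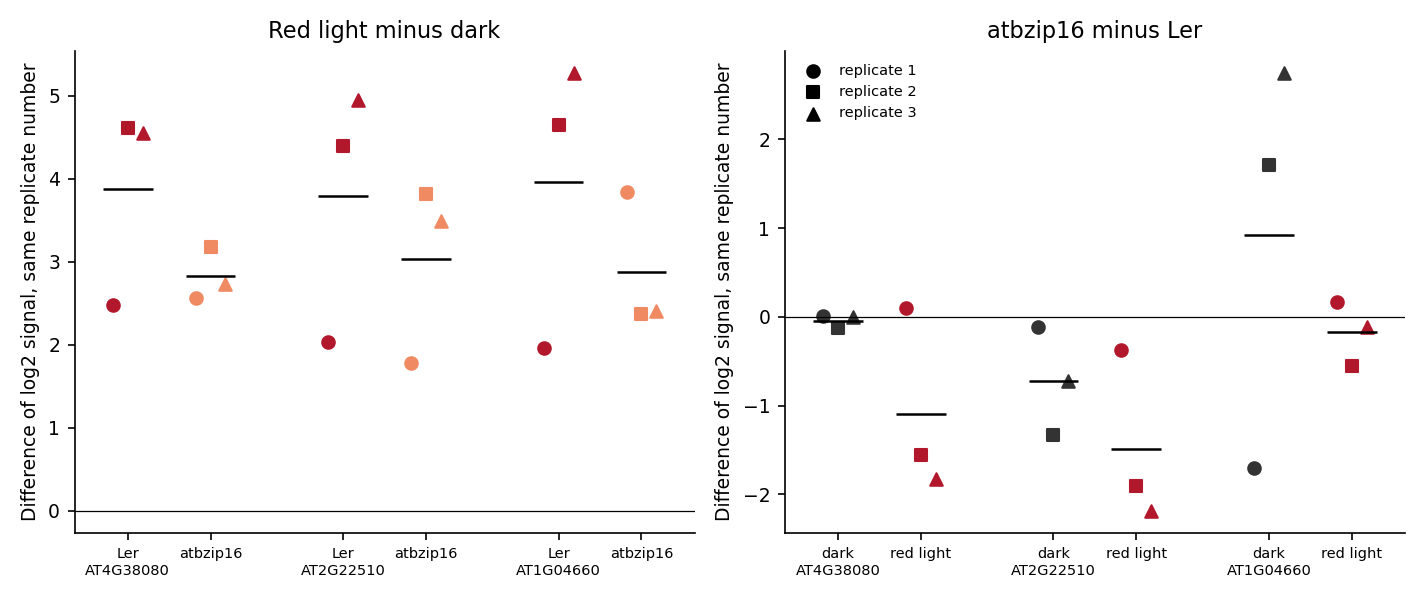
Differences of log2 signal between arrays of the same replicate number, red light minus dark in each genotype (left) and atbzip16 minus Ler in each light condition (right), with the mean as a bar. In Ler the light difference of replicate 1 (circle) is the smallest for each gene, from 1.96 to 2.48, and the red-light genotype difference of AT4G38080 and AT2G22510 lies below -1.5 in replicates 2 and 3 but not in replicate 1.

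**Figure D3:**
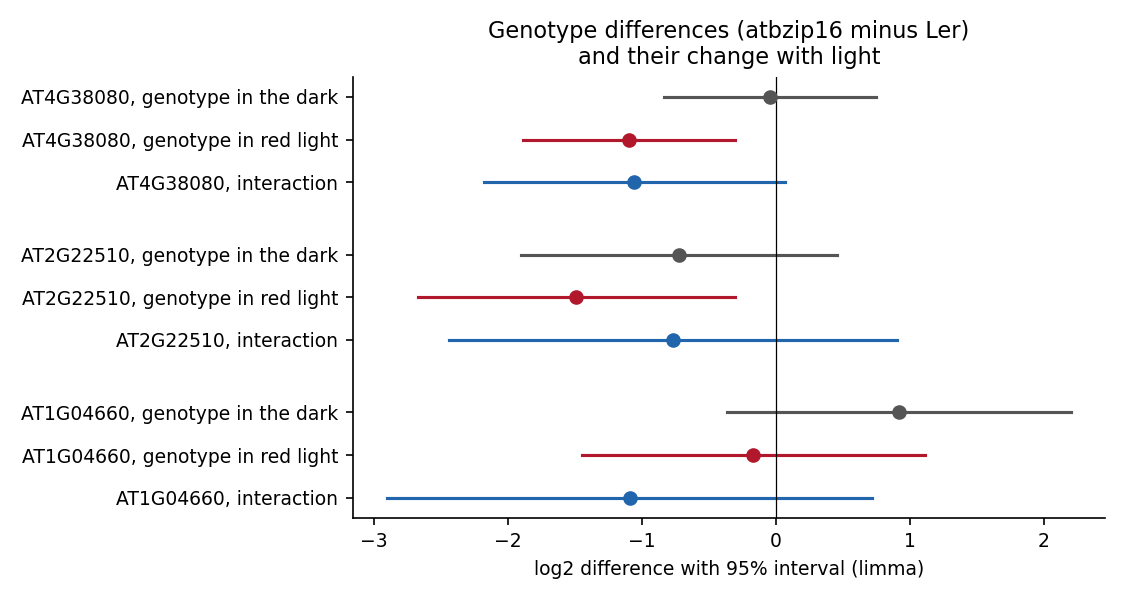
Log2 differences with 95% intervals from limma for the genotype difference in the dark, in red light and for the interaction, atbzip16 minus Ler. The red-light intervals of AT4G38080 and AT2G22510 end at -0.30, and the other 7 intervals include 0. The intervals are not adjusted for the number of probe sets. Neither of these red-light differences passed over all probe sets (limma adjusted p = 0.752 and 0.807).

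AT4G38080 and AT2G22510 varied together more closely than either did with AT1G04660. Over the 12 arrays the Pearson correlation of log2 signal was 0.97 for AT4G38080 with AT2G22510, 0.88 for AT4G38080 with AT1G04660 and 0.81 for AT2G22510 with AT1G04660. Over the 6 red-light arrays alone it was 0.89, 0.56 and 0.80, in the same order, and over the 6 dark arrays, where AT2G22510 and AT1G04660 were near the low-signal limit, 0.66, 0.06 and -0.51. After each group's mean was taken away, the correlation was 0.78 for AT4G38080 with AT2G22510, and 0.19 and 0.10 for AT1G04660 with each of them. The points share arrays and replicate number, and replicate 1 lies far from the other replicates in several groups. These correlations are descriptions over few arrays.

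The named genes whose signal was most like each of the 3 over the 12 arrays were sought among the tested probe sets with 1 gene. As all groups entered that search, the similar genes share a member's differences by selection. For AT4G38080 they were AT2G35380 (Pearson r = 0.970), AT2G22510 (0.966), AT2G23540 (0.965), AT4G38690 (0.961) and AT1G13930 (0.958). In all, 179 probe sets correlated with AT4G38080 above 0.9, so such likeness was common. AT1G13930 had mean signals of 536.4 in dark Ler, 370.2 in dark atbzip16, 3445 in red-light Ler and 1649 in red-light atbzip16. It was lower in atbzip16 in red light by limma (log2 difference -1.06, adjusted p = 0.00792), which AT4G38080 was not with a difference of much the same size (-1.09). AT2G35380 had 30.2 and 36.2 in the dark and 252.0 and 148.7 in red light, in Ler and atbzip16, and its red-light genotype difference did not pass (-0.76, limma adjusted p = 0.996).

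For AT2G22510 the most similar were AT2G23540 (r = 0.980), AT4G38080 (0.966), AT1G56320 (0.948), AT5G35170 (0.948) and AT5G42680 (0.943), among 70 probe sets above 0.9. AT2G23540 thus stood on both lists, with mean signals of 71.2 in dark Ler, 45.4 in dark atbzip16, 346.2 in red-light Ler and 191.4 in red-light atbzip16. Its genotype difference in red light did not pass (-0.86, limma adjusted p = 0.996). AT5G35170 and AT5G42680 had much smaller light differences, 1.33 and 1.11 in Ler against 3.79 for AT2G22510. As with AT2G22510 (3.03 in atbzip16), the light difference of AT5G35170 was smaller in atbzip16 than in Ler. That of AT5G42680 was larger in atbzip16, at 1.33.

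AT1G04660 had a different set of similar genes, none of them shared with the others' lists. They were AT1G54740 (r = 0.963), MCCA, a subunit of methylcrotonyl-CoA carboxylase in leucine breakdown (0.962), AKINBETA1, a regulatory subunit of the energy-sensing kinase SnRK1 (0.955), AT1G64430 (0.953) and ATG8B, an autophagy protein (0.950). In all, 159 probe sets correlated with it above 0.9. Their light differences in Ler lay between 0.71 for MCCA and 1.89 for AT1G54740, against 3.96 for AT1G04660. By the same selection their red-light means differed little between Ler and atbzip16, as with AT1G54740 at 4042 and 4052 and ATG8B at 3512 and 3508, and AT1G04660 itself had 536.2 and 477.5.

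**Figure D4:**
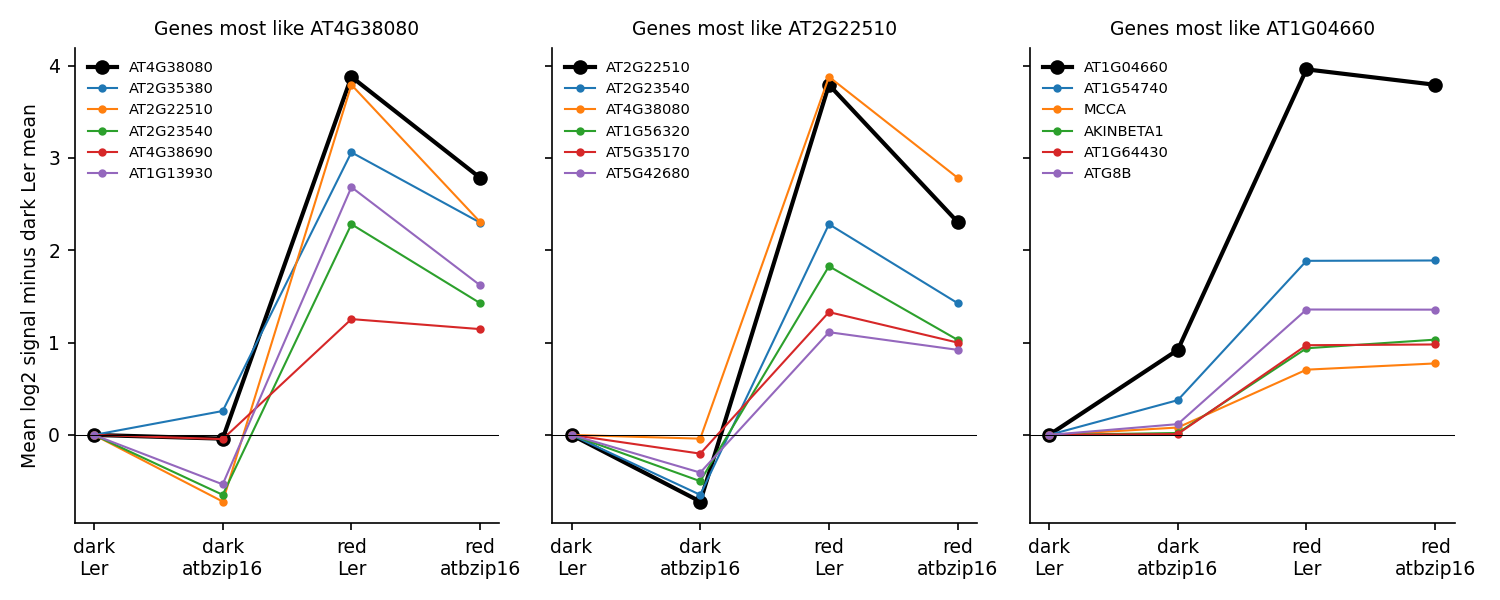
Mean log2 signal of each gene (thick line) and its 5 most similar named genes (thin lines) in the 4 groups, minus the gene's mean in dark Ler. Likeness over these groups is what the genes were selected for. The red-light genotype difference of the similar genes that are not members lies between -1.06 (AT1G13930) and -0.11 (AT4G38690) for the first pair of panels and between 0.00 and 0.09 (AKINBETA1) for the last.

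Other wall protein genes were taken from lists chosen for their known roles. Of 26 listed extensins and other hydroxyproline-rich proteins 11 were matched to a probe set and 6 passed the low-signal limit, and 0 of 6 were called in either direction in Ler or in atbzip16 by limma, 1 having an unadjusted p under 0.05 in each. Among the 15922 probe sets tested, 3927 had an unadjusted p under 0.05 in Ler and 4319 in atbzip16. Of all probe sets, 5.65% were called higher and 5.78% lower in Ler, and 7.09% and 6.88% in atbzip16. Higher probe sets made up 49.4% of these calls in Ler and 50.8% in atbzip16, and 67.4% and 65.9% after median centring, so such counts are relative to the scaling. The median light difference of the 6 was 0.52 in Ler and 0.32 in atbzip16, against -0.06 and -0.02 over all probe sets tested. AT1G23720 came nearest, from 112.3 to 214.9 in Ler (log2 difference 0.94 ± 0.28, limma adjusted p = 0.0512, or 0.0194 once replicate was a block, which called 11.0% of all probe sets higher) and from 125.7 to 203.2 in atbzip16 (0.69 ± 0.28, limma adjusted p = 0.133). HRGP1, a hydroxyproline-rich glycoprotein, had 0.61 ± 0.39 in Ler (limma adjusted p = 0.365), and AT4G18670 had -0.44 in atbzip16 (limma adjusted p = 0.393). Extensin genes are repetitive and alike, so probe sets for them may share signal.

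Of 14 listed glycine-rich proteins 4 were tested, and limma called 0 in either genotype, with 0 in Ler and 1 in atbzip16 at an unadjusted p under 0.05. Over all 15922 probe sets, limma called 5.65% higher in Ler and 7.09% in atbzip16, and 3927 and 4319 had an unadjusted p under 0.05. The median light difference of the 4 was 0.32 in Ler and 0.44 in atbzip16. AT2G05540 had among the highest signals met here, with 20061 in the dark and 25047 in red light in Ler (0.32 ± 0.15, limma adjusted p = 0.222, or 0.0253 once replicate was a block). AT2G05530 had 0.59 in Ler (limma adjusted p = 0.507). In atbzip16, AT1G02710 had 0.89 ± 0.39 (limma adjusted p = 0.164) and AT5G46730 had 0.49 (limma adjusted p = 0.450).

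Of 22 listed prolyl 4-hydroxylases, which make hydroxyproline, and glycosyltransferases that add sugars to it, 10 were tested. In Ler 0 were called by limma, also at an unadjusted p under 0.05, and the median was -0.19. Over all 15922 probe sets, limma called 5.65% higher in Ler, and 3927 had an unadjusted p under 0.05. XEG113, an arabinosyltransferase of extensins, had -0.27 in Ler (limma adjusted p = 0.366) and AT4G25600 had 0.70 (limma adjusted p = 0.333). In atbzip16 1 was called, AT5G66060, which rose from 109.2 to 190.5 (0.80 ± 0.24, limma adjusted p = 0.0392), and the median was -0.16. Limma called 7.09% of all probe sets higher in atbzip16. AT5G66060 had 180.5 and 179.5 in Ler, and the difference in light response between genotypes did not pass (limma adjusted p = 1.000). That call ended without the low-signal filter, with the lowest 50% of probe sets removed and without any 1 of dark Ler replicate 2 or 3, dark atbzip16 replicate 1 or 3, red-light Ler replicate 3 and red-light atbzip16 replicate 1 or 2. The 36 listed arabinogalactan proteins and 8 cellulose synthases were not analysed here.

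**Figure D5:**
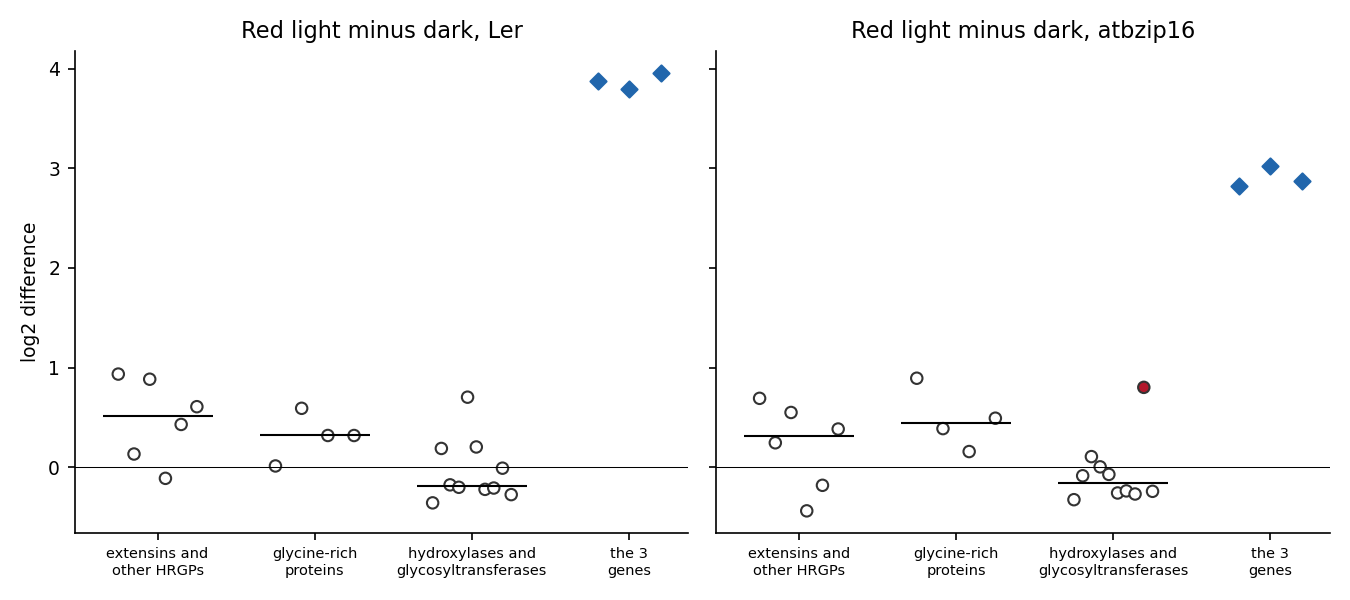
Log2 difference between red light and dark of the 10 tested wall protein genes and 10 tested modifying-enzyme genes (circles, filled where limma called them, with the list median as a bar) and of AT4G38080, AT2G22510 and AT1G04660 (diamonds). Listed genes lie between -0.44 and 0.94, and the diamonds, which were chosen for this difference, between 2.82 and 3.96.

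Genes next to the 3 on the chromosome were read to see whether the light difference extended to them, in the gene order of assembly TAIR10.1. Of the 6 protein-coding genes nearest to each, 4 in all were tested. AT4G38090, next to AT4G38080, had a light difference of 0.43 ± 0.18 in Ler (limma adjusted p = 0.165) and 0.54 ± 0.18 in atbzip16 (0.0682), and AT4G38100 had -0.41 and -0.28 (limma adjusted p = 0.354 and 0.536). AT2G22530, near AT2G22510, had 0.01 and 0.08 (limma adjusted p = 0.988 and 0.902). AT1G04680, near AT1G04660, was lower in red light, from 2706 to 1807 in Ler (limma adjusted p = 0.00497) and from 2593 to 1630 in atbzip16 (limma adjusted p = 0.00172). None of these 4 neighbours was called higher in red light, where limma called 5.65% of all probe sets higher in Ler and 7.09% in atbzip16. With so few tested, this cannot show whether the light difference extended to neighbouring genes.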

How the data were processed

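Total RNA, per the labels (whose protocol also describes polysome RNA), was hybridised to an Affymetrix oligonucleotide array with 22810 probe sets. The deposited values are probe set intensity on a linear scale, which the authors computed with MAS5, per the submitters' processing notes. Software version, settings and detection calls are not given in the sources used here. Each array's mean without the lowest and highest 2% was 500.0, so values are relative to that scaling. Groups and replicate numbers came from sample titles. For 6 samples the free-text description contradicts the title on light, and the title was followed.

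No pseudocount was added before log2. The 64 control probe sets and the 30% of the rest with the lowest geometric mean were left out, and 15922 were fitted over all 12 arrays with limma 3.58.1 in R 4.3.3 (a mean per group, eBayes with a variance trend). Benjamini-Hochberg adjustment ran over all probe sets of a contrast, with calls under 0.05. The fit was run on simulated data with independent noise on each array, to see that it returned set light differences in Ler. That simulation held no effect shared by replicate number, so it does not check the p values under such an effect. Of 14016 annotated probe sets, 13513 had 1 gene, of which 13436 were in the gene table, and 503 had several. A gene with several probe sets was read from the brightest.

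The genes and lists were chosen with earlier results of these data known. Named genes were the 3 members, the 5 named genes most correlated with each, and from each list up to 4 called genes per light contrast, or the 2 with the smallest p. Neighbouring genes were added later. Deviations from the group mean correlated positively between same-numbered arrays of different groups in 18 of 18 pairs (0.164 to 0.505). In the 36 pairs of arrays with different numbers the correlation was -0.386 to 0.248, so the ranges overlapped. The numbers were taken to pair the arrays. Alternatives were median centring, quantile normalization, a pseudocount of 16, other low-signal filters, no variance trend, a replicate block and leaving out each array.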

Additional observations from a re-analysis of the deposited data

How the results depend on the processing

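The light differences of the 3 genes kept their direction under every alternative run, moving by less than the spread within groups in 115 of 118 values. The exceptions came with replicates 2 and 3 alone, where those in Ler were 4.58 for AT4G38080, 4.67 for AT2G22510 and 4.96 for AT1G04660. Many of the 118 could not move, as the filters, variance trend, block and arrays outside a contrast do not enter its estimate. The choice of the genes also favoured the direction, so the count is no test of it. Of 177 genotype and interaction values, 167 kept direction and side of the threshold. Here too the filters, variance trend, block and arrays outside a contrast could move only the p value. With replicates 2 and 3 alone, a choice made after the values were seen that leaves out the replicate that ran against the other two in several of these values, and so supports nothing, 6 passed: in red light AT2G22510 (-2.04) and AT4G38080 (-1.69), in the dark AT1G04660 (2.23) and AT2G22510 (-1.02), and the interaction for AT1G04660 (-2.57) and AT4G38080 (-1.62). Leaving out 1 array gave -2.28 to -1.05 for AT2G22510 in red light, past the threshold at its low end, without red-light Ler replicate 1. The dark genotype difference of AT4G38080 changed sign, between -0.33 and 0.23. Median centring moved the median light difference of all probe sets by 0.14 in Ler and 0.11 in atbzip16, and those of the 3 genes by as much. With the lowest 50% of probe sets removed AT1G04660 was not tested.

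With replicate as a block (replicate numbers were taken to pair the arrays), no call among the 3 genes changed. All-probe-set counts went from 1820 to 3761 for light in Ler and from 2224 to 4221 for light in atbzip16. They went from 10 to 290 for genotype in the dark, 6 to 87 for genotype in red light and 0 to 54 for the interaction. Without 1 array these counts were 1061 to 2058, 1375 to 2505, 1 to 39, 1 to 25 and 0 to 2, and with replicates 2 and 3 alone 4257, 4647, 639, 463 and 243. The dark genotype count was 6 with median centring, 26 with a pseudocount of 16, 18 without the filter and 3 without a variance trend, and the interaction count 1 with the pseudocount. Among the 10 wall protein genes and 10 modifying-enzyme genes tested, the number higher in Ler went from 0 to 1 with median centring, quantile normalization or the pseudocount, to 2 with the block or replicates 2 and 3 alone, and 0 to 2 without 1 array. In atbzip16 it went from 1 to 0 with no filter or the 50% filter, to 2 with replicates 2 and 3 alone, and 0 to 1 without 1 array. The cause of these changes was not tested. With 3 arrays a group and no detection calls, dark levels of AT2G22510 and AT1G04660 are poorly measured, for AT2G22510 mainly in atbzip16. The dark Ler arrays of AT2G22510, at 56.3 to 76.9, all lay above the low-signal limit of 41.6 (SD of log2 signal 0.24).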
